A study of Mus musculus with 22 samples.

Results

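The livers described here are the 6 control livers of a mouse study of tumour-bearing animals, out of 22 livers in all. They were chosen by their labels alone, as every library named CT in the table of raw read counts. CT mice were male wild-type CD2F1 animals that were sham-injected, given vehicle and carried no tumour; CD2F1 is a cross of inbred strains. The other groups (C26, 8 mice with C26 tumour cells; C26-TDCA, 8 such mice that also received taurodeoxycholic acid, a bile acid) were used only to state how the table was filtered and in 2 alternative settings, and no groups were compared. The 6 livers carry the numbers CT 1, CT 2, CT 5, CT 6, CT 7 and CT 8, are separate mice per the design text, and gave polyA RNA from whole frozen tissue. The labels give neither age, feeding state nor the hour of tissue collection.

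The liver makes most of the proteins of blood plasma, and hepatocytes, its main cell type, also carry out ammonia disposal, gluconeogenesis, lipid synthesis and oxidation, bile acid synthesis and the conversion of drugs. Transcripts for these tasks are known to follow food intake, glucocorticoids, the circadian clock and, in rodents, the male pattern of growth hormone release. Control livers can therefore differ from each other in some genes more than in others.

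The 6 libraries held 16511100 to 25260393 counts over 15448 genes. Levels are TMM-scaled counts per 1000000 reads counted (CPM), on which scale 3 counts were 0.119 to 0.182 CPM. Levels of single genes were ranked as length-scaled levels (TPM, the same after division by the exonic length of each gene), since a long transcript collects more reads, and shares of gene lists are of counts unless TPM or the length-scaled level is named. Spread is given as the coefficient of variation (CV), the SD over 6 livers divided by their mean. In all, 14925 genes had reads in all 6 livers, 19 had none in any, and 7869 reached a mean of 10 CPM. Log2 CPM of any pair of livers correlated across genes with Pearson's r of 0.983 to 0.989, genes not being independent replicates, and the chi-square of every pair was at least 11.5 times its degrees of freedom, so no pair was as close as sampling noise alone. The labels were checked on marker genes. Of 12 hepatocyte markers, all were measured, and their summed level ranged from 84901 to 94196 CPM. The Y-linked Ddx3y ranged from 61.5 to 82.8 CPM and Xist, the RNA of the inactive X chromosome, from 0.100 to 0.768 CPM, as the male label has it.

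Few genes held most of the counts: 27 genes held 25 percent of all counts, 207 held 50 percent and 1364 held 75 percent. Albumin (Alb), the main carrier protein of plasma, was the highest gene on both scales, with 49688 ± 3147 CPM (SD, n = 6) and a length-scaled level of 53204 TPM. It took 4.97 ± 0.31% of all counts, between 4.49% in CT 8 and 5.27% in CT 7.

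After albumin, the highest length-scaled levels were those of mt-Co1, a mitochondrially encoded subunit of cytochrome c oxidase (39588 TPM), and of Mup3 and Mup17 (26376 and 22073), which encode major urinary proteins, the pheromone carriers that male mice excrete. Apoa2, an apolipoprotein of high-density lipoprotein, followed at 19153 TPM. Serpina3k, a protease inhibitor, stood at 17851, Fabp1, the fatty acid carrier of the hepatocyte cytosol, at 16239, Apoe at 14834 and Apoa1 at 14318. Of the 25 highest genes, 16 encode secreted proteins, 7 are mitochondrially encoded and 2, Fabp1 and the ethanol-oxidising cytochrome P450 Cyp2e1, belong to the metabolic lists. Among the 100 highest, 45 were secreted, 37 metabolic and 7 mitochondrial, and 11 were in none of these lists.

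**Figure D1:**
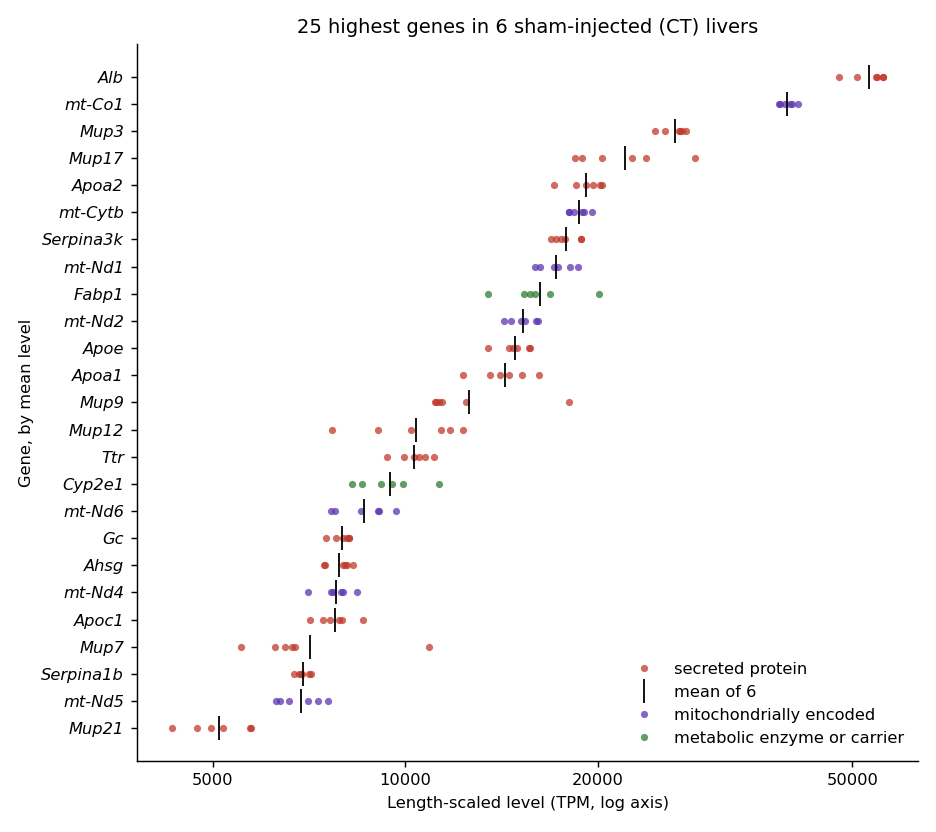
Length-scaled level (TPM, log axis) of the 25 highest genes in each of the 6 CT livers; points are livers, coloured by gene class, and black bars are means. Alb leads at 53204, most genes have livers close together, and Mup9 and Mup7 each have 1 liver, CT 8, to the right of the other 5.

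Promoter sequences of abundant liver genes are shown to set their base composition beside that of all tested genes. The last 100 bases before the annotated start, from RefSeq on GRCm38.p6 and read 5′ to 3′ on the strand of the gene, are given for the apolipoprotein gene Apoa1 (chr9:46228530-46228629, plus strand), the vitamin D-binding protein gene Gc (chr5:89457899-89457998, minus strand) and Fabp1 (chr6:71199779-71199878, plus strand). Capitals mark each CG dinucleotide and, in Fabp1, the motif TATAAA.
Apoa1: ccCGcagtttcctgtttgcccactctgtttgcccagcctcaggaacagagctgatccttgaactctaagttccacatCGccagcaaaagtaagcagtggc
Gc: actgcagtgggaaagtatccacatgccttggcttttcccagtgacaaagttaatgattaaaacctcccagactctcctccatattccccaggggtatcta
Fabp1: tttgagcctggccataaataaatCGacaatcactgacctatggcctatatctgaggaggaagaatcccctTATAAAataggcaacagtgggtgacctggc
Among 7252 tested protein-coding genes with 1 listed start, the 250 bases before the start held a median of 16 CG dinucleotides. The median was 2 in the 57 such genes among the 100 with the highest length-scaled level, 3 in 116 secreted genes and 10 in 361 metabolic genes. TATAAA, searched on the strand of the gene from base -40 to base -16, occurred in 1.48% of all 7252 promoters, in 6.03% of the secreted and in 6.37% of the metabolic ones. These are descriptions of letters in the sequence, not of binding.

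Secreted proteins took the largest share of any listed class. The 186 measured genes of 8 secreted protein lists held 27.6 ± 0.24% of counts (SD, n = 6), with every liver between 27.4% and 28.0%. On the length-scaled level the share was 36.8 ± 0.36%. Albumin and other plasma carriers made up 8.66% of counts and 10.5% of TPM. Protease inhibitors were next by counts, with 5.85%, ahead of major urinary proteins with 4.12% and apolipoproteins with 3.96%. By TPM the order was different, with 9.65% for major urinary proteins, 6.85% for apolipoproteins and 5.48% for protease inhibitors. Coagulation factors took 2.18% of counts and 1.74% of TPM, and complement 2.11% and 1.47%. Liver hormones and their binding proteins took 0.487% and 0.410%. The acute phase list, of proteins that rise in inflammation, took 0.271% and 0.756%. C3, the fibrinogen chains, haptoglobin (Hp, 1957 CPM) and haemopexin (Hpx, 2863 CPM) were counted in other lists. C3, the central complement component, stood at 7455 ± 724 CPM and Fga, the fibrinogen alpha chain, at 4662 ± 299 CPM.

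Metabolic genes held fewer counts, spread over more genes. The 560 measured genes of 14 metabolic lists took 21.7 ± 0.39% of counts and 20.4 ± 0.15% on the length-scaled level. By counts the largest lists were urea cycle and amino acid catabolism (3.48%), cytochrome P450 enzymes (2.83%), conjugation and other drug metabolism (2.79%), and fatty acid oxidation and ketogenesis (2.39%). By TPM the order of these 4 was reversed at its ends, with 3.13% for fatty acid oxidation and ketogenesis, 2.91% for P450 enzymes, 2.88% for conjugation and 2.72% for the urea cycle and amino acid catabolism. The carrier Fabp1, at 16239 TPM, is counted in the fatty acid list and held much of its TPM, so this reversal depends on that gene. Cps1, which commits ammonia to the urea cycle, stood at 4195 ± 441 CPM, the carbonic anhydrase Car3 at 5183 ± 300 CPM, and catalase (Cat), which breaks down hydrogen peroxide, at 3747 ± 98.9 CPM. Nuclear genes of oxidative phosphorylation took 1.003% of counts over 68 genes. Genes encoded in the mitochondrial genome took 5.85 ± 0.22% of counts and 11.8 ± 0.43% on the length-scaled level. Among the subunits of cytochrome c oxidase encoded there, length-scaled levels were 39588 TPM for mt-Co1, 489 for mt-Co2 and 288 for mt-Co3. Genes of cytosolic ribosomal proteins took 1.15%, with Rpl4 at 572 and Rpl13a at 5.98 TPM. The sources used here do not say how reads with several matches were counted, and its part in these low values was not tested.

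**Figure D2:**
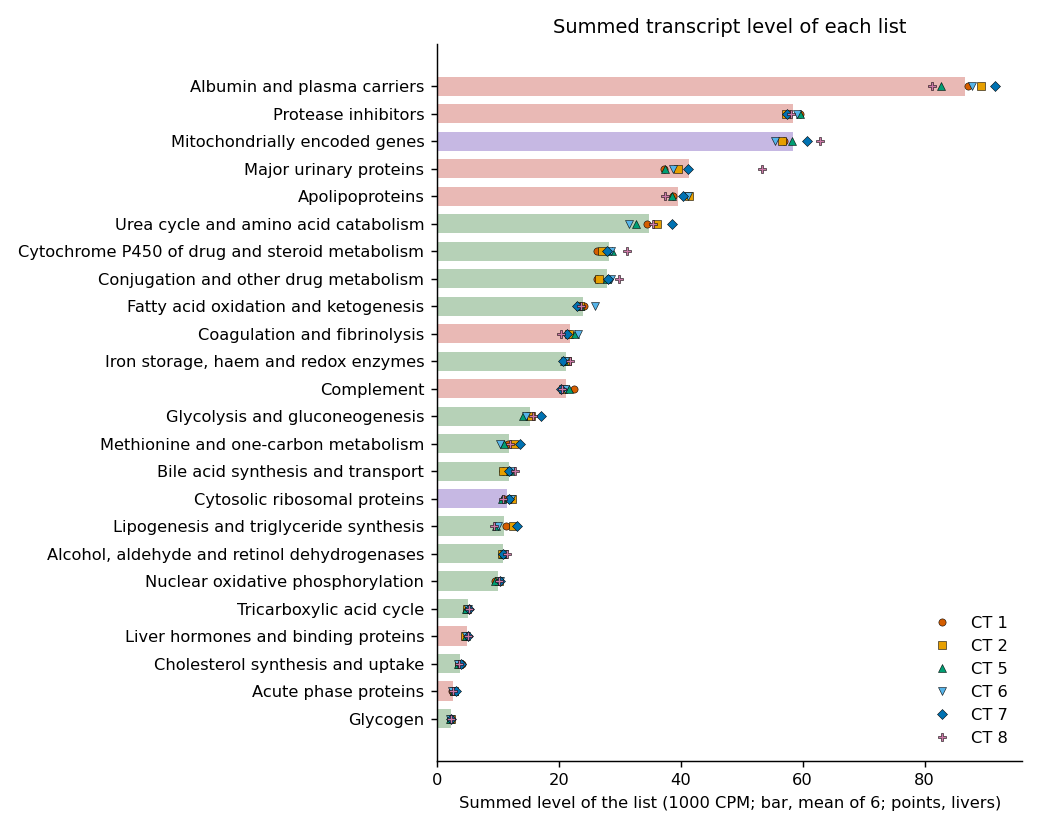
Summed level of each list (CPM, drawn in units of 1000); bars are means of the 6 CT livers, red for secreted, green for metabolic and violet for mitochondrial and ribosomal lists, and markers are single livers. Plasma carriers lead at a mean of 86611 CPM, and CT 8 lies apart from the other 5 livers for the major urinary proteins (53329 CPM against at most 41210), as CT 6 does for fatty acid oxidation (25896 CPM against at most 24049).

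The spread between livers was small for abundant genes. The median CV over 12588 tested genes was 11.5%, with quartiles of 7.42% and 19.1%, and it was 6.73% among tested genes of at least 100 CPM. edgeR's goodness-of-fit test, which asks whether a gene varied more among the 6 livers than the dispersion trend for genes of its abundance, called 338 of the 12588 genes (2.69%) at an adjusted p of 0.05 or less. Of these, 246 had a mean of at least 10 CPM, 289 were protein coding, and 8 of the 128 genes with at least 1000 CPM were among them: Scd1, Pck1, Mup7, Mup10, Tat, Errfi1, Mup20 and Mup14. Scd1, Mup10, Tat and Mup14 stayed called whichever liver was left out, and the other 4 each lost their call without 1 or more livers. The number called depends on the tool, with 174 genes by DESeq2's dispersion outliers and 82 by limma, all of them among the 338. The filter kept only genes that reached, in all 6 livers, a level of about 10 counts at the median depth. A gene high in 1 liver and near 0 in the others was therefore not tested.

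**Figure D3:**
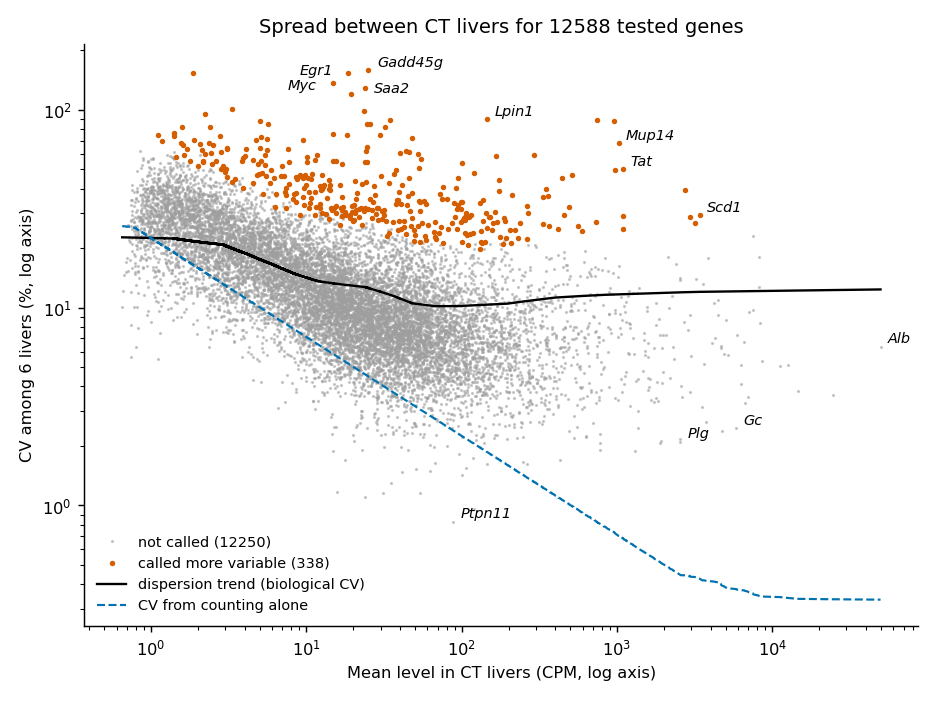
CV among 6 CT livers (percent, log axis) against mean level (CPM, log axis) for 12588 tested genes; orange points are the 338 called more variable, the black line is the dispersion trend and the dashed line the CV that counting alone would give. Called genes reach up to Scd1 at a mean of 3406 CPM, and abundant plasma protein genes such as Plg and Gc lie far below the trend.

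The spread was unevenly shared between lists. Of the secreted genes, 26 of 175 tested were called (14.9%), and of the metabolic genes 54 of 553 (9.76%), against 2.69% of all tested genes. Of the 26 secreted calls, 12 were major urinary protein genes, which are near-identical copies, and 7 were acute phase genes. The median CVs of the secreted and metabolic genes, 8.11% and 8.47%, were nevertheless below the 11.5% of all tested genes, low-count genes included. Both classes held steady and variable members. Tested genes of at least 10 CPM had a median CV of 8.58%, and those of at least 100 CPM 6.73%, and the medians of both classes lay between these. The classes were not matched to other genes by abundance. By edgeR, no member was called among 22 coagulation factors, 25 complement genes, 18 apolipoproteins, 26 genes of the tricarboxylic acid cycle, 68 of nuclear oxidative phosphorylation and 81 of cytosolic ribosomal proteins. These lists were named because none of their members was called. At an unadjusted p below 0.05 in the same test stood 2 of these 240 genes, against 916 of all 12588 tested. All DESeq2 and limma calls lie among those of edgeR, so these tools could add none here and give no separate evidence. The highest percentages were those of immediate early genes (14 of 21), major urinary proteins (12 of 21), glucocorticoid and fasting responsive genes (14 of 26), acute phase proteins (7 of 14) and sex-biased, growth hormone-dependent genes (13 of 31).

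**Figure D4:**
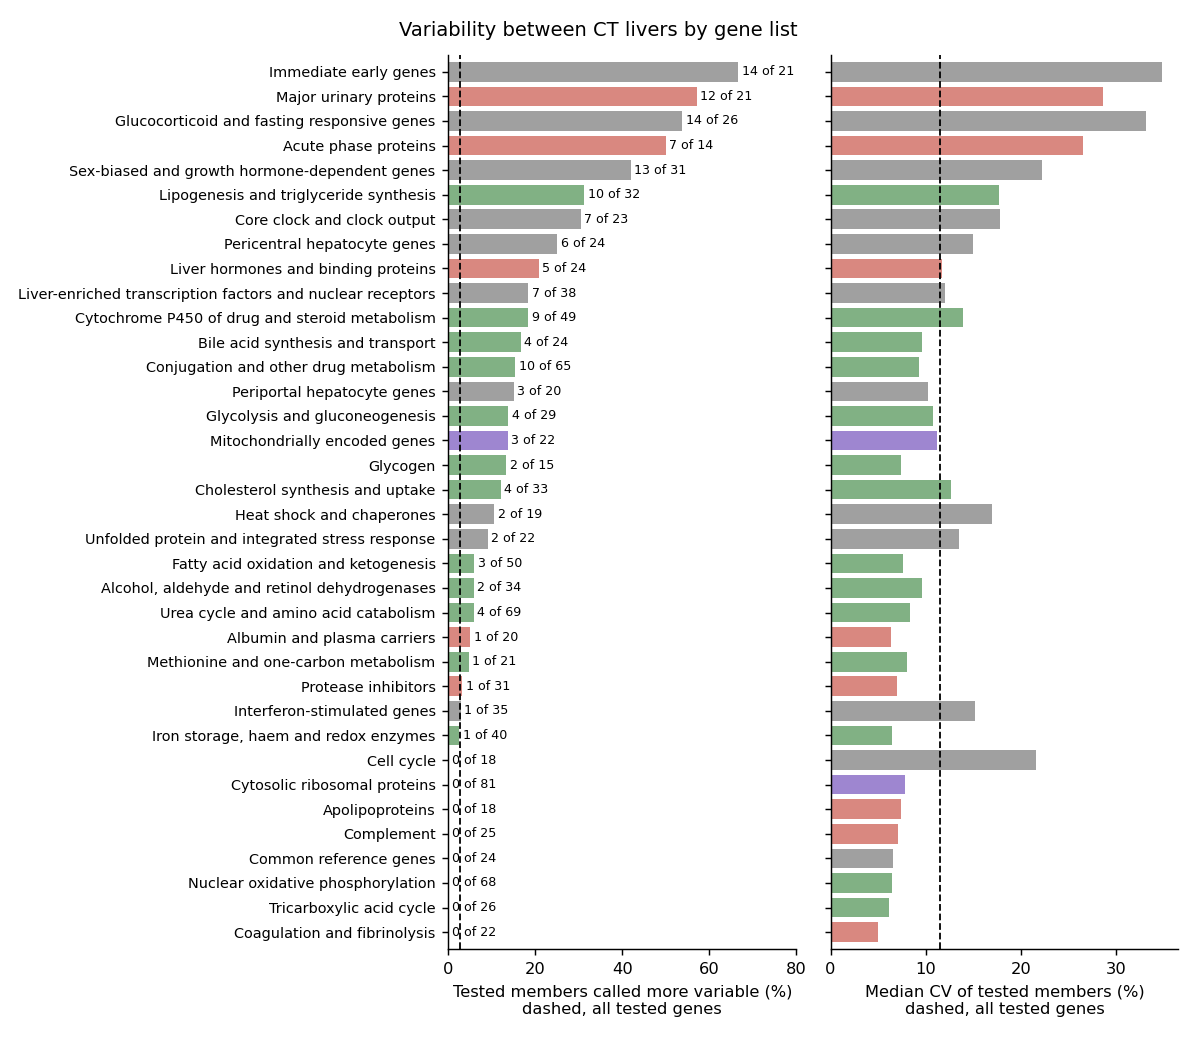
Percent of tested members called more variable (left, with counts) and median CV of tested members (right) for the lists with at least 10 tested genes, cell type marker lists not drawn; red lists are secreted, green metabolic, violet mitochondrial or ribosomal and grey themes, and dashed lines mark all tested genes (2.69% and 11.5%). Immediate early genes stand at the top, and 8 of the lists drawn, coagulation among them, at 0.

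Immediate early genes, which are transcribed soon after a stimulus and include transcription factors of the AP-1 family, held some of the widest ranges, and 9 of the 14 called members were highest in CT 1. That liver was highest for 27.2% of all called genes and 19.9% of all tested genes. Egr1 was measured at 74.9 CPM in CT 1, 19.6 in CT 5, 9.45 in CT 7, 5.20 in CT 2, 1.38 in CT 6 and 1.05 in CT 8. CT 1 was far above the other livers, and CT 6 and CT 8 were at the bottom. Jun, an AP-1 subunit, ran from 5.23 CPM in CT 6 to 68.3 in CT 1 around a median of 16.4, and Junb from 10.6 in CT 6 to 94.0 in CT 1 around a median of 28.6. Zfp36, an RNA-binding protein that shortens the life of cytokine transcripts, likewise ran from 66.3 CPM in CT 6 to 223 in CT 1. The growth regulator Myc had the opposite order at its ends: 55.3 CPM in CT 6, 1.54 in CT 1 and at most 11.8 in the other 4. These 5 were called in the full set and in each fit that left out 1 liver. Btg2 and Nr4a1, also highest in CT 1, were called with all 6 livers but not without CT 1. The summed level of the list was 797 CPM in CT 1 and 367 to 483 CPM in the other 5, and 10 of its members were called when CT 1 was left out.

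A set of 5 features, 1 of them annotated as ribosomal RNA, was also highest in CT 1, followed by CT 2. That feature, CT010467.1, stood at 1684 CPM in CT 1 and 1469 in CT 2, and at 535 to 866 CPM in the other 4. Gm23935, a short unnamed gene, stood at 2396 and 1542 CPM against 319 to 615 CPM. The mitochondrial leucyl-tRNA synthetase gene Lars2 had the same order, 1931 and 1073 CPM against 247 to 489 CPM. With Gm24270 and Gm15564 they took 0.618% of counts in CT 1, 0.418% in CT 2 and at most 0.198% in the other livers. Heat shock genes had a higher sum in the same livers, 2923 CPM in CT 1 and 3018 in CT 2 against 2324 to 2453 CPM, with Hsph1 and Hsp90aa1, both chaperones, called. The part of these features in the calls above was not tested.

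**Figure D5:**
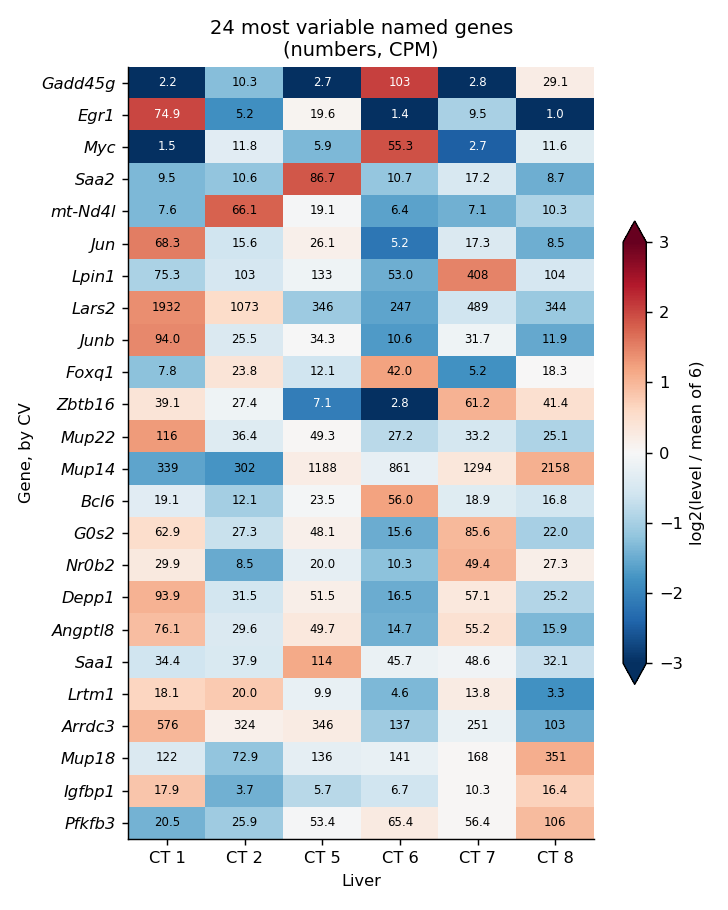
Level in each CT liver relative to the mean of 6 (colour, log2) for 24 of the 25 genes with established symbols and the largest CV among called genes of at least 10 CPM; the numbers are CPM. CT 1 is highest in 9 of the 24 genes and CT 6 lowest in 9, and each liver is the highest for at least 2. Among all 338 called genes, CT 1 was highest for 27.2% and CT 6 lowest for 24.6%. CT 1 was highest for 19.9% of all tested genes.

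These 24 genes, which the CV itself chose, had CVs from 56.6% to 158%. Gadd45g, a stress-response gene, led them, at 103 CPM in CT 6, 29.1 in CT 8, 10.3 in CT 2 and 2.24 to 2.75 CPM in CT 5, CT 7 and CT 1. CT 6 was also highest for the repressor Bcl6 (55.96 CPM against 12.1 to 23.5 CPM), a call that was lost without CT 6, and for the transcription factor Foxq1 (42.0 CPM against 5.15 to 23.8 CPM). The growth hormone and cytokine feedback inhibitor Cish ran from 8.15 CPM in CT 1 to 42.4 in CT 6, and Socs2, of the same family, from 10.8 CPM in CT 1 to 41.5 in CT 5. The promoters of Jun (chr4:95052223-95052322, minus strand) and Gadd45g (chr13:51846575-51846674, plus strand) are shown as examples of called genes, with the same marks as above, the choice having been made after their values were seen.
Jun: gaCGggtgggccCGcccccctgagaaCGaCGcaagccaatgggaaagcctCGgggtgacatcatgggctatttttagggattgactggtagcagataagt
Gadd45g: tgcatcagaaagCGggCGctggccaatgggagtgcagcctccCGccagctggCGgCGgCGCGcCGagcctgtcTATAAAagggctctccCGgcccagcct
TATAAA was found in the Gadd45g window and not in that of Jun. It occurred in 5.95% of the 168 called genes with 1 start and in none of the 9 such genes among the called members of the immediate early list. A further called immediate early gene, which the list held only under a former symbol and so missed, did have TATAAA. The median number of CG dinucleotides in 250 bases was 11 in the called genes and 20 in those 9, against 16 over all 7252. It was 16 in Gadd45g and 15 in Jun, but 2 in Saa2 and 3 in Lcn2, whose CVs of 129.6% and 100.5% also exceed the 98.5% of Jun.

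Of the 14 called glucocorticoid and fasting responsive genes, 5 were highest in CT 7, 5 in CT 1, 2 in CT 8 and 2 in CT 6. CT 7 and CT 1 were highest for 16.9% and 27.2% of all called genes. Tat, which degrades tyrosine and is a classical glucocorticoid target, was at 733 to 777 CPM in CT 1, CT 2, CT 5 and CT 6, at 1503 CPM in CT 8 and at 2046 CPM in CT 7. The levels of 4 livers were nearly equal, and CT 7 and CT 8 stood above them. Lpin1, a phosphatidate phosphatase and nuclear coactivator, stood at 408 CPM in CT 7 and at 53.0 to 133 CPM in the other 5. Zbtb16, another glucocorticoid target, ran from 2.83 CPM in CT 6 and 7.06 in CT 5 to 61.2 in CT 7. Pck1, which catalyses the committed step of gluconeogenesis, was at 4088 CPM in CT 7 and 4280 in CT 8 and at 2235 to 2996 CPM in the other 4; its call was lost without CT 1, CT 7 or CT 8. Fkbp5 and Tsc22d3, further targets of the receptor, ran from 46.7 CPM in CT 6 to 145 in CT 7 and from 46.8 CPM in CT 5 to 134 in CT 8, calls that were lost without CT 6 and without CT 8, respectively. The summed level of the list was 8772 CPM in CT 7, 8158 in CT 8 and 4922 to 5632 CPM in the other livers. Pck1 and Tat made up most of that sum in CT 7 and CT 8, so it largely restates these genes. The call count, 14 of 26, was 11 to 14 when a liver was left out.

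Genes that insulin or feeding controls did not all have the same order of livers. Angptl8, a secreted regulator of lipoprotein lipase that is induced by feeding, ran from 14.7 CPM in CT 6 and 15.9 in CT 8 to 76.1 in CT 1. Igfbp1, a binding protein that insulin represses, was also highest in CT 1 (17.9 CPM), with CT 8 next (16.4 CPM) and CT 2 lowest (3.75 CPM). Pfkfb3, a regulator of glycolysis, ran from 20.5 CPM in CT 1 to 106 in CT 8.

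Of the lipogenic genes, 10 of 32 tested were called, against 2.69% of all tested genes. Fasn, the fatty acid synthase, stood at 513 CPM in CT 1, 434 in CT 2, 357 in CT 7 and 225 to 248 CPM in the other 3, and Acly, which supplies its acetyl-CoA, at 386, 342 and 265 CPM in the same livers and 199 to 207 CPM in the others. Both had CT 1, CT 2 and CT 7 on top. Scd1, the stearoyl-CoA desaturase, was highest in CT 2 and CT 7 (4707 and 4568 CPM) and ran from 2258 to 3076 CPM in the other 4. Dgat2, which makes triglyceride, was not called, at 684 to 827 CPM. In cholesterol synthesis and uptake, 4 of 33 tested members were called (12.1%, against 2.69%). Insig1 and Insig2, which hold back the sterol-sensing activator of this pathway, were highest in CT 1 at 291 and 174 CPM. The call of Insig1 was lost without CT 5, and that of Insig2 without CT 2 or CT 8.

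Bile acid genes split between enzymes. Cyp7a1, which starts the classical pathway and limits its rate, was at 141 CPM in CT 1, 301 in CT 2, 403 in CT 6, 503 in CT 8, 642 in CT 7 and 648 in CT 5. The range was 4.59-fold, and the gene stayed called without any 1 of the livers. Cyp7b1 of the alternative pathway ran from 323 CPM in CT 1 to 681 in CT 6, a call lost without CT 6. Cyp8b1, the sterol 12-alpha-hydroxylase, and Cyp27a1 were not called, with CVs of 9.63% and 8.00%. The bile salt transporters Slc10a1, for uptake, and Abcb11, for export, had CVs of 6.90% and 9.08%. Nr0b2, the repressor through which bile acids act on Cyp7a1, ran from 8.45 CPM in CT 2 to 49.4 in CT 7.

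The acute phase list summed to 2481 to 3096 CPM, and CT 5 was the highest liver for 4 of its 7 called members. CT 5 was highest for 10.9% of all called genes. C3, the fibrinogen chains, Hp and Hpx, which also rise in inflammation, were counted in other lists. The abundant Hp and Hpx were not called, with CVs of 6.29% and 7.70%, so the calls describe a list without them. Saa2, serum amyloid A, stood at 86.7 CPM in CT 5 and at 8.68 to 17.2 CPM in the other 5. Saa1 stood at 114 CPM in CT 5 and at 32.1 to 48.6 CPM in the others, and Lcn2, an iron-chelating defence protein, at 9.96 CPM against 1.17 to 2.63 CPM. These calls and that of Orm2 were lost without CT 5, and the list's count then fell from 7 to 3. Orm1, an abundant member, was not called (647 ± 52.5 CPM), nor was Crp (348 ± 35.4 CPM). Hamp, the hormone that limits iron uptake, was at 195 CPM in CT 1 and at 372 to 489 CPM in the other 5, a call lost without CT 1. Among monocyte and neutrophil markers, 10 of 12 were measured, and their sum was 2.83 to 7.70 CPM in all 6 livers.

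Major urinary protein genes, an abundant family, differed between livers in 12 of 21 tested members. Mup14 ran from 302 CPM in CT 2 and 339 in CT 1 to 2158 in CT 8, and Mup18 from 72.9 CPM in CT 2 to 351 in CT 8. Mup7 stood at 4604 CPM in CT 8 against 2287 to 2845 CPM, and Mup9, which was not called, at 11055 CPM against 6644 to 7285 CPM. Mup10 had another order, from 1409 CPM in CT 6 to 4032 in CT 2, and Mup22 was highest in CT 1, at 116 CPM against 25.1 to 49.3 CPM. The highest members, Mup3 and Mup17, were not called, with CVs of 5.05% and 18.1%. The sum of the family was 53329 CPM in CT 8 and 37250 to 41210 CPM in the other 5, and 6 rather than 12 members were called without CT 8. These genes are near-identical copies, so the level of a single member is uncertain.

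Of the 13 called genes under growth hormone or sex control, 5 were highest in CT 6, 3 in CT 5 and 1 or 2 in each of CT 1, CT 7 and CT 8. CT 6 and CT 5 were highest for 15.7% and 10.9% of all called genes. Cyp3a44, which is higher in female mouse liver, was low, between 1.06 CPM in CT 6 and 5.85 in CT 1, and its call was lost without CT 6. Igf1, the main hormone induced by growth hormone, was not called, at 673 ± 73.3 CPM. Of the drug-metabolising P450 genes, 9 of 49 tested were called (18.4%, against 2.69%), and 5 without CT 8, with Cyp2c39 and Cyp2c38 both highest in CT 1 and CT 5, while the abundant Cyp2d10 was among the steadiest genes of the liver (781 ± 14.9 CPM).

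Of the clock and clock output genes, 7 of 23 tested were called (30.4%, against 2.69% of all tested genes). Nr1d1, a repressor of the core loop, stood at 170 CPM in CT 1, 106 in CT 5, 99.3 in CT 2, 76.2 in CT 7, 61.2 in CT 6 and 52.4 in CT 8. Dbp, an output transcription factor, had the same ends, 203 CPM in CT 1 and 123 in CT 8, and was not called. Alas1, the rate-limiting enzyme of haem synthesis, had the reverse ends, 111 CPM in CT 1 and 816 in CT 8. Noct, a clock-controlled phosphatase, ran from 22.2 CPM in CT 1 to 68.0 in CT 8. Arntl, the activator of the loop, was low at 0.550 to 2.74 CPM, and its call was lost in 5 of the 6 fits that left out 1 liver. Per2, Per3 and Rora were not called, with CVs of 10.8%, 9.18% and 3.97%. Without CT 6, 3 members were called, and without CT 8, 4.

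Of 38 tested liver-enriched factors and nuclear receptors, 7 were called (18.4%, against 2.69%), and 4 without CT 7 or without CT 8. The central regulator Hnf4a ranged from 524 to 668 CPM and Cebpa, which keeps hepatocytes differentiated, from 383 to 532 CPM, and neither was called. Cebpb, which glucocorticoids and inflammation induce, ran from 47.5 CPM in CT 1 to 89.97 in CT 8, and Onecut1 from 16.4 CPM in CT 1 to 44.5 in CT 5. The calls of Onecut1, without CT 5, and of Cebpb, without CT 1 or CT 8, were lost. Zonation, the division of labour between hepatocytes near the portal and the central vein, was read from a list for each side. Of periportal genes, 3 of 20 tested were called, and 1 without CT 1 or without CT 7; their sum ranged from 21144 CPM in CT 6 to 25481 in CT 7. Of pericentral genes, 6 of 24 were called, and their sum ranged from 13487 CPM in CT 1 to 18629 in CT 8. All tested genes had 2.69% called. The abundant pericentral gene Cyp2e1 had the same ends, 6939 and 9964 CPM, and was not called. It made up much of the pericentral sum in CT 1 and CT 8, so that sum in large part restates this gene.

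The steadiest genes are given as a description, since their CV chose them. Among 2855 tested genes of at least 50 CPM, the 25 smallest CVs ran from 0.827% to 2.14%, and 14 of the 25 were below the CV that counting alone would give. Ptpn11, a tyrosine phosphatase of growth factor signalling, was at 87.4 to 89.4 CPM in all 6 livers, and Aifm1, a mitochondrial flavoprotein, had a mean of 121 ± 1.16 CPM. The set also held Cct2, a subunit of the cytosolic chaperonin, the kinase Jak1, the iron sensor Tfr2, and 4 secreted proteins, among them plasminogen (Plg, 2539 ± 53.4 CPM), the kininogen Kng1 (1920 ± 40.8 CPM) and the zinc-binding Azgp1 (1295 ± 24.4 CPM). Gc, whose promoter is shown above, had a CV of 2.46% at 5854 CPM, and Selenop, the selenium carrier of plasma, 2.38% at 4713 CPM. The promoters of the pair with the smallest CV, Ptpn11 (chr5:121191398-121191497, minus strand) and Aifm1 (chrX:48513564-48513663, minus strand), are shown for comparison with those above.
Ptpn11: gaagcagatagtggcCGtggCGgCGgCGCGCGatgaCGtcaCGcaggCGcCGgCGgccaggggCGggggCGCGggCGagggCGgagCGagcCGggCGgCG
Aifm1: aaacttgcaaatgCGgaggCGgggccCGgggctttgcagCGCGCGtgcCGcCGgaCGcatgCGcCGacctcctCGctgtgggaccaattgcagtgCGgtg
They hold 20 and 13 CG dinucleotides in these 100 bases, against 5 in Jun, 9 in Gadd45g, 2 in Apoa1 and 0 in Gc. The 71 genes with 1 start among the 100 smallest CVs had a median of 16 in 250 bases, the same as all tested genes.

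None of 24 genes in common use as references was called by edgeR, against 2.69% of all tested genes, a share that gives few calls in so short a list. In edgeR's test, 2 of the 24 had an unadjusted p below 0.05. DESeq2 and limma, whose calls all lie among those of edgeR, could add none. Among the 24, CVs were lowest for the elongation factor Eef1a1 (3.15%), Ywhaz (3.60%), Sdha (3.98%), Psmb2 (4.13%) and Ubb (4.17%). Actb and Gapdh stood at 4.82% and 7.66%, Hprt at 10.3% and Tbp at 11.5%. Tubb5, at 28.9 to 48.5 CPM, and Tfrc, at 17.3 to 33.9 CPM, were the widest of those above 10 CPM, with CVs of 19.2% and 26.9%; Tfrc had an adjusted p of 0.056 in edgeR's test and passed it without CT 1.

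Markers of other cells were then read. In whole tissue, fewer cells of a type and less RNA per cell cannot be told apart. The share called over all tested genes was 2.69%, and calls of 1 or 2 markers in such short lists are not read as a result about a cell type. The 12 Kupffer cell markers summed to 353 to 405 CPM, and none of 11 tested was called by edgeR or had an unadjusted p below 0.05 in its test. DESeq2 and limma, whose calls all lie among those of edgeR, could add none. Clec4f, specific to these resident macrophages, had a CV of 5.98%. The 13 markers of sinusoidal endothelium summed to 400 to 484 CPM, and 1, Stab2, was called, at 96.7 CPM in CT 8 against 43.5 to 59.7 CPM, but not without CT 8. Of 12 stellate cell and fibroblast markers, with a sum of 351 to 454 CPM and a median CV of 18.2%, 2 were called, and 1 without CT 2, CT 5 or CT 7. Acta2, smooth muscle actin, was one of them, at 6.44 CPM in CT 2 against 0.825 to 3.26 CPM, and its call was lost without CT 2. Median CVs of the 5 cholangiocyte, 6 B cell and 9 erythroid markers tested were 19.1%, 28.6% and 32.9%, against 11.5% of all tested genes. Low counts alone widen a CV, and the B cell markers summed to only 17.6 to 31.2 CPM. Against the trend for their abundance, no B cell marker was called. Of the cholangiocyte markers, 8 of 12 were measured, with a sum of 154 to 178 CPM in all livers, but Krt19 (3.81 CPM), Krt7 (1.79 CPM) and Epcam (3.41 CPM) were highest in CT 2 and at most 1.601 CPM elsewhere; Epcam alone of these was called, and not without CT 2. Of 19 markers of exocrine pancreas, 5 were measured, and Cela1 gave most of their sum, at 40.2 to 48.5 CPM in all 6 livers. In CT 2 the pancreatic enzyme genes Ctrb1, Pnlip and Amy2b were at 1.79, 0.895 and 0.840 CPM, and they had no reads in the other 5 livers save 0.05002 CPM of Ctrb1 in CT 7. Haemoglobin genes Hbb-bs and Hba-a1 ran from 26.9 and 15.8 CPM in CT 8 to 63.5 and 38.9 CPM in CT 7 and were called, Hba-a1 not without CT 7. Of 12 muscle markers, 1 was measured, with at most 0.945 CPM.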

How the data were processed

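Liver polyA RNA of 6 CT mice was analysed. The authors deposited raw read counts per Ensembl gene, which were analysed unchanged. Per the submitters' processing notes, the build was GRCm38 and the tools included featureCounts 2.0.3, HISAT2 2.2.1 and Trimmomatic 0.40. The sources used here name no annotation release, strand option or handling of multi-mapping reads, so overlapping genes and near-identical copies (Mup, Serpina, Saa, Orm, Cyp2 and others) are uncertain. The table holds genes with at least 10 counts in some of the 22 libraries.

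Levels were TMM-scaled over the 6 libraries with edgeR 4.0.16 in R 4.3.3. Length-scaled levels used exonic lengths of GENCODE M21, an annotation of GRCm38, and left out 78 genes under 200 bases, a limit chosen after seeing the data. Genes were kept by filterByExpr (minimum count 10), which left 12588. Each was tested with edgeR's goodness-of-fit test against the dispersion trend of the 6 libraries (common biological CV 13.2%, trend 10.2% to 22.7%), with Benjamini-Hochberg adjustment at 0.05; the step was tested on simulated data. With 6 mice, a CV is itself imprecise. Depth was 16511100 to 25260393 counts. No batch or date is given in the labels. DESeq2 1.42.0, limma 3.58.1, other scalings and filters, and leaving out each liver were the alternatives.

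Members and gene lists were chosen with earlier results of these data known. Named genes are the 25 highest on each scale, the 25 largest CVs among called genes of at least 10 CPM, the 25 smallest at 50 CPM or more, up to 4 highest and 4 called members and both CV extremes of each list, and all reference and clock genes; a few that the rule gives are not reported here. In addition, 25 genes outside that rule are named, chosen after their values were seen, among them Errfi1, Mup10, Mup20, Fkbp5, Acly, Cyp27a1, Slc10a1, Gm23935 and CT010467.1.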

Additional observations from a re-analysis of the deposited data

Results flagged for a closer look

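In 31 of 195 results examined (138 genes named above, 49 list sums and 8 library totals and shares), the highest liver stood apart from the other 5, with a gap to its neighbour of more than 0.625 of the whole range. Both the highest and the lowest liver were examined, for which chance alone gives about 1 in 20, and many of these genes were named for their spread. All values here are that gap as a part of the range, and no cause was tested.

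CT 8 stood apart for the summed level of the major urinary proteins (0.754) and for Mup9 (0.855), Mup7 (0.759) and Mup18 (0.657), as well as for Tsc22d3 (0.668), Stab2 (0.696) and, within its small range, Ptpn11 (0.691). CT 1 stood apart for the summed level of the immediate early genes (0.731) and for Egr1 (0.749), Jun (0.670), Junb (0.715), Btg2 (0.765), Mup22 (0.735) and Ppp1r3c (0.745). CT 5 stood apart for the serum amyloid genes Saa1 (0.800) and Saa2 (0.891) and for Lcn2 (0.834).

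CT 2 stood apart for the pancreatic enzyme genes Ctrb1 (0.972), Pnlip (1) and Amy2b (1), which had almost no reads elsewhere, and for the bile duct markers Krt19 (0.761), Epcam (0.683) and Krt7 (0.706). The clock activator Arntl (0.658) and mt-Nd4l (0.788) were highest in the same liver. CT 6 stood apart for Myc (0.810), Gadd45g (0.734), Bcl6 (0.739) and the summed level of fatty acid oxidation genes (0.650), and CT 7 for Lpin1 (0.774) and the summed level of erythroid markers (0.710).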

How the results depend on the processing

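No paired analysis was possible because no groups were compared and the results come from no test between groups. The count of 338 variable genes was 172 with the dispersion trend of all 22 libraries, 174 as DESeq2 dispersion outliers and 82 with limma, the cause of which was not tested; other scalings and filters gave 266 to 388 and a common dispersion 463, all within 1.5 times. Leaving out 1 liver gave 276 to 292, and 116 of the 338 genes stayed called in all 6 such fits. The secreted share, 27.6%, became 36.8% on the length-scaled level, 29.4% without mitochondrially encoded genes, 28.0% over protein-coding genes and 23.2% without near-identical families. The metabolic share, 21.7%, became 20.4%, 23.1% and 19.5% on the length-scaled level, without mitochondrial genes and without those families. The share of the 20 most abundant genes, 21.7%, became 34.99% length-scaled (36.4% with genes under 200 bases kept), 20.2% without mitochondrial genes, 22.1% over protein-coding genes and 21.5% without families. The mitochondrial share, 5.85%, became 11.8% length-scaled and 6.63% without families; leaving those genes out gives no value. Without 1 liver, these shares ranged from 27.6% to 27.7%, 21.6% to 21.8%, 21.7% to 21.8% and 5.78% to 5.90%. Genes under about 1 CPM rest on few reads, and a high level in 1 liver there was not tested.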

Other observations

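Liver hormones and their binding proteins, which act on other tissues, had 5 of 24 tested members called, against 2.69% of all tested genes. Tsku, a secreted hepatokine, ran from 44.0 CPM in CT 1 and 56.2 in CT 2 to 146 in CT 7 and 185 in CT 8. Igfbp2, which binds insulin-like growth factors, stood at 376 CPM in CT 6 and 363 in CT 8 and at 170 to 221 CPM in the other 4. Inhbe, a subunit of activin E, was highest in CT 1 (146 CPM) and lowest in CT 6 (69.05 CPM). Igfbp4, an abundant member, was not called, at 1600 ± 63.8 CPM (SD, n = 6).

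Of the targeting subunits that bring protein phosphatase 1 to glycogen, Ppp1r3b and Ppp1r3c were called. Ppp1r3b, the main liver form, ran from 80.04 CPM in CT 5 to 209 in CT 8, and Ppp1r3c from 21.98 CPM in CT 8 to 61.8 in CT 1. The call of Ppp1r3c was lost without CT 1. The glycogen phosphorylase Pygl was not called, at 440 to 514 CPM.

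Of 35 interferon-stimulated genes, 1 was called (2.86%, near the 2.69% of all tested genes), the chemokine gene Cxcl9, at 9.48 CPM in CT 8 to 24.9 in CT 1. Iigp1, an interferon-induced GTPase, had a CV of 5.98% at 385 CPM. Dnajb9, a chaperone of the endoplasmic reticulum, was at 36.7 to 41.4 CPM in CT 1, CT 2 and CT 5 and at 66.0 to 80.7 CPM in CT 6, CT 7 and CT 8. In the mitochondrial genome, mt-Nd4l stood at 66.1 CPM in CT 2, 19.1 in CT 5 and 6.41 to 10.3 CPM in the other 4 livers.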
